A study of Mus musculus with 58 samples.

Results

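Parvalbumin (PV) interneurons of the mouse ventral subiculum were compared by their level of Tac1, the gene for preprotachykinin-1, from which the peptides substance P and neurokinin A are cut. The series holds 58 cells, and 54 of them carry the quality control label Pass. The members were chosen by their Tac1 CPM, a gene's count relative to all counts of its cell scaled to 1000000 counts (1 M): the 18 Pass cells with the highest values are called Tac1-high here and the 18 with the lowest Tac1-low, 36 cells of 58 in all. The 18 Pass cells between them are called the middle cells and were used as a reference only. All cells came from PV-Cre::Ai9 mice, with no treatment in the labels, in which the Cre recombinase is made by cells that use the parvalbumin gene and switches on a red fluorescent reporter for good, so a labelled cell need not use the gene at the time of recording. The contents of each cell were drawn into a patch pipette and sequenced.

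The labels give 4 male and 3 female mice, with male cells taken at postnatal day 35 or 36 (P35, P36) and female cells at P40 or P42. No label ties a cell to its mouse, so the cells were put into 4 pools of 1 sex and age, and sex and age cannot be told apart. Tac1-high held 4 cells of the male P35 pool, 2 of male P36, 5 of female P40 and 7 of female P42. Tac1-low held 5, 7, 3 and 3 cells of these pools. The middle cells were 5, 4, 9 and 0 of these pools, so none was from female P42. Male cells made up 12 of the 18 Tac1-low and 6 of the 18 Tac1-high cells, and the log2 differences and tests below were therefore taken within pools. Medians, ranges and counts of cells per side, and Spearman's rho over all cells, join the pools and so include this imbalance. Total counts were 4.76 to 28.9 M in Tac1-low cells (median 11.4 M) and 2.07 to 52.3 M in Tac1-high cells (median 11.9 M), with a median of 13090 and 13102 genes detected. Gad1, which makes the GABA-synthesizing enzyme GAD67, exceeded Slc17a7, whose product loads glutamate into the vesicles of excitatory cells, in each of the 18 cells of either side.

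Tachykinins are small peptides that neurons store in dense core granules and release beside their main transmitter. Substance P acts mainly on the NK1 receptor (gene Tacr1), neurokinin A on NK2 (Tacr2), and neurokinin B, from the separate gene Tac2, on NK3 (Tacr3). In the hippocampal formation and cortex, Tac1 is known from a part of the PV basket cells, which contact the soma of principal cells. Axo-axonic cells, another PV type, contact the axon initial segment instead.

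Tac1 lies at chr6:7554879-7565834 on the plus strand (GRCm38, GENCODE vM21), and its level was graded over the cells and not split into 2 clear groups. A count was present in 54 of 54 Pass cells, and the lowest was 63. Tac1-low cells had 6.84 to 456 CPM (median 182), middle cells 456 to 855 CPM (median 649), and Tac1-high cells 981 to 3180 CPM (median 1438). These values chose the sides and were not tested. At the lower border the last Tac1-low cell had 455.9 CPM and the first middle cell 456.2 CPM, so these 2 cells were nearly alike, while at the upper border the values were 854.8 and 980.7 CPM. The male P36 pool had the lowest median over its Pass cells, 419 CPM (6.84 to 1857, 13 cells), and the female P42 pool the highest, 1287 CPM (121 to 2864, 10 cells). The medians of male P35 and female P40 were 686 and 666 CPM (14 and 17 cells). The ranges of the 4 pools overlapped.

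**Figure D1:**
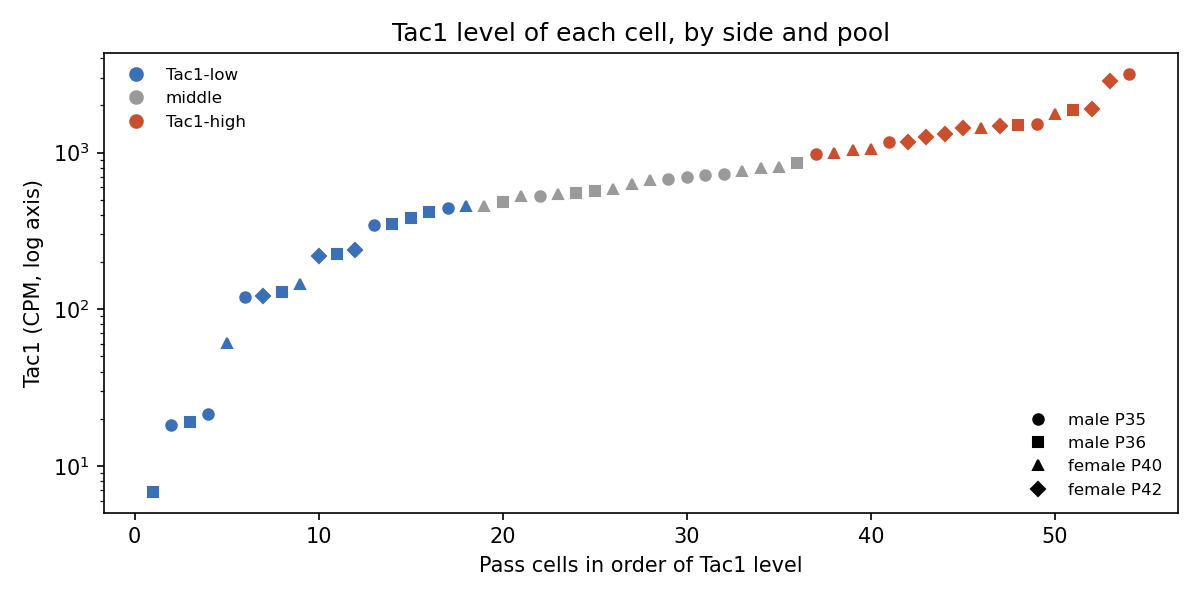
Tac1 level of the 54 Pass cells on a log axis, ordered from lowest to highest, with side as colour and pool as marker. The 18 Tac1-low cells run from 6.84 to 456 CPM and the 18 Tac1-high cells from 981 to 3180 CPM, and each pool is present on both sides.

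Bases upstream of Tac1, and of Rab3b and Cartpt, the 2 genes whose level over the cells was most like that of Tac1 (values below), are shown around matches to the cyclic AMP response element (CRE, TGACGTCA) or its half-site TGACG. These motifs were searched on both strands in the 250 bases before the RefSeq start (GRCm38.p6) because CREB, the factor that binds them, is known to act on peptide genes. Each line holds 30 bases, 5′ to 3′ on the gene's strand, with the match in capitals (CGTCA is the half-site on the other strand).
Tac1 at -197, chr6:7554851-7554880 (plus): ttccctaaaattgCGTCAtttcgaacacaa
Tac1 at -43, chr6:7555005-7555034 (plus): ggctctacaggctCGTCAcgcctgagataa
Rab3b at -197, chr4:108878860-108878889 (plus): aaagagcaaaactTGACGccatcatcatct
Cartpt at -112, chr13:99900777-99900806 (minus): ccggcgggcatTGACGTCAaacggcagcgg
Positions count from the RefSeq start to the first base of the match. Tac1 had 2 half-sites and no whole CRE, Rab3b 1 half-site, and Cartpt 1 whole CRE, within which its half-sites overlap. GENCODE vM21 places the start of 1 or more transcripts further upstream than RefSeq, and in it the Tac1 match at -43 and the Cartpt CRE lie in an untranslated region, so for these the window is not upstream of every annotated start. A whole CRE occurred in 1.55% and a half-site in 17.8% of 32851 RefSeq windows of 250 bases. A match describes the letters only.

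For the comparison of all other genes, the counts were summed over the cells of each side in each pool, and the 2 sides were compared within the 4 pools. Calb1, a cytosolic calcium buffer, had the smallest p of the genes tested and was higher in Tac1-high cells, but no gene passed correction for the number of genes tested. With edgeR's quasi-likelihood test, 0 of 13370 genes had a Benjamini-Hochberg adjusted p under 0.05 (0%). At an unadjusted p under 0.05, 285 genes were higher (2.13%) and 333 lower (2.49%) in Tac1-high cells, 618 in all. DESeq2 on the same sums called 102 genes higher (0.763%) and 216 lower (1.62%). Regardless of p, 856 genes (6.40%) were higher in Tac1-high in all 4 pools and 931 (6.96%) lower. The genes below are therefore given as values with the order of their p, and none as a call of the main test. The p-values measure the spread between these 4 pools only, since a pool can hold several mice. A pool's sum also gives deeply sequenced cells more weight. On the Tac1-high side of female P40, cell 3 had 52.3 M counts and the next deepest, cell 10, 15.1 M. The Tac1-high sums of that pool therefore lean on cell 3.

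Calb1 (chr4:15881264-15908064) ranged from 13.4 to 1146 CPM over the Tac1-low cells (median 199), with a median of 377 CPM in the middle cells, and from 104 to 2842 CPM over the Tac1-high cells (median 1111). The sides overlapped, yet 16 of 18 Tac1-high cells were above the Tac1-low median and 1 Tac1-low cell was above the Tac1-high median. In the pool sums, Tac1-low and Tac1-high stood at 233 and 855 CPM in male P35, 322 and 2227 in male P36, 155 and 476 in female P40, and 415 and 1409 in female P42. Calb1 was higher on the Tac1-high side in all 4 pools. The log2 difference was 2.01 (SE 0.21), with an unadjusted p of 6.30e-06 and an adjusted p of 0.0842 by edgeR. DESeq2 gave an adjusted p of 1.94e-14 for the same difference, and limma on the mean log2(CPM + 1) of the cells gave 0.0202. Pvalb, the calcium buffer that names the cells, ran from 1.24 to 323 CPM in Tac1-low (median 99.5) and from 1.27 to 788 CPM in Tac1-high cells (median 53.0). Its log2 difference was -0.02 (SE 0.50, adjusted p = 1 by edgeR), higher in 2 of 4 pools.

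Of the other calcium buffers, Necab1, a neuronal calcium-binding protein, had medians of 72.2 CPM in Tac1-low and 192 CPM in Tac1-high cells. Its log2 difference was 1.41 (SE 0.33, unadjusted p = 0.00236 by edgeR), higher in 4 of 4 pools. The 3 calmodulin genes differed by 0.05 or less on the log2 scale. Calb1 and Necab1 were the 2 of 9 tested buffers with an unadjusted p under 0.05, both higher, and the list's median log2 difference was -0.02, the same as over all 13370 genes.

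Among genes of peptide storage and release, Rab3b and Scg2 were higher in the Tac1-high sums. Rab3b (chr4:108879063-108943324) is a small GTPase of secretory vesicles. Its level was 36.7 to 901 CPM in Tac1-low (median 351) and 470 to 1674 CPM in Tac1-high cells (median 746). All 18 Tac1-high cells were above the Tac1-low median, and 2 Tac1-low cells were above the Tac1-high median. The log2 difference was 1.10 (SE 0.21, unadjusted p = 0.000513, adjusted p = 0.527 by edgeR) and positive in 4 of 4 pools. Scg2, for secretogranin II, a granule protein, had medians of 431 and 766 CPM and a log2 difference of 0.53 (SE 0.17, unadjusted p = 0.0136 by edgeR), higher in 3 of 4 pools. Carboxypeptidase E (Cpe), which trims peptides, had medians of 1623 and 1689 CPM, and chromogranin B (Chgb) 411 and 413 CPM. Wider apart were chromogranin A (Chga), at 483 and 275 CPM (log2 difference -0.38, SE 0.26), and Vgf, a granule protein and peptide precursor, at 27.2 and 54.2 CPM (0.77, SE 0.37, higher in 4 of 4 pools). Of 15 members tested, 10 were higher and 5 lower, 2 had an unadjusted p under 0.05, and the median was 0.11.

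Cartpt, for the CART neuropeptide (chr13:99898489-99901091), was low in Tac1-low cells, at 0.171 to 42.3 CPM (median 5.61). It reached a median of 34.0 CPM in the middle cells and 45.2 CPM in Tac1-high cells, where it spread from 2.20 to 420 CPM. No Tac1-low cell lay above the Tac1-high median, and 16 of 18 Tac1-high cells lay above the Tac1-low median, but the ranges overlapped. The difference between the pool sums was unequal over the pools: Tac1-low and Tac1-high were 11.2 and 167 CPM in male P35, 20.6 and 38.0 in male P36, 3.30 and 160 in female P40, and 8.15 and 159 in female P42. In the female P40 Tac1-high sum, cells 3 and 10 had 178 and 230 CPM, and cells 7, 8 and 15 had 7.31, 20.5 and 46.8 CPM. The log2 difference of Cartpt was 3.78 (SE 0.76, unadjusted p = 0.000774, adjusted p = 0.535 by edgeR). Crhbp, for the binding protein of corticotropin-releasing hormone, had medians of 337 CPM in Tac1-low (7.87 to 701) and 498 CPM in Tac1-high cells (132 to 1255). Its log2 difference was 1.0 (SE 0.20, adjusted p = 0.535 by edgeR) and positive in 4 of 4 pools.

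The list of other neuropeptides showed no shared direction beyond these. Of 13 members tested, 7 were higher and 6 lower (median 0.76), 2 had an unadjusted p under 0.05 on the higher side and 1 on the lower. Nxph1, which stands in this list although neurexophilin 1 is a secreted partner of neurexins and not a peptide hormone, was 85.7 to 740 CPM in Tac1-low (median 342) and 345 to 1151 CPM in Tac1-high cells (median 614). All 18 Tac1-high cells were above the Tac1-low median of Nxph1, and its log2 difference was 0.85 (SE 0.20, unadjusted p = 0.00243 by edgeR). Cort, for cortistatin, had medians of 6.71 and 29.6 CPM and a log2 difference of 1.59 (SE 0.63, unadjusted p = 0.0338 by edgeR), higher in 4 of 4 pools. Penk, for the enkephalins, was near 0 in most cells of both sides (medians 0.319 and 0.130 CPM). Its log2 difference of -3.96 (SE 1.36) came from few cells, since 4 of the Tac1-low cells held 99.3% of that side's summed CPM.

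Somatostatin (Sst) and neuropeptide Y (Npy), peptides of another interneuron class, had close medians on the 2 sides, 7.64 and 7.60 CPM for Sst and 1.97 and 0.819 CPM for Npy. The pool sums differed by 1.67 (SE 1.63) for Sst and 1.74 (SE 2.78) for Npy on the log2 scale, with adjusted p of 1 by edgeR for both. The highest Tac1-high values of both, 3298 CPM for Sst and 3779 CPM for Npy, came from male P35 cell 3. Sst was above Pvalb in 2 Tac1-low, 7 middle and 5 Tac1-high cells. Without those cells, which were picked by Sst itself, the differences of Sst and Npy were -0.69 and -1.75, and that of Calb1 was 1.79.

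Stxbp6, for amisyn, a protein that binds the membrane fusion machinery, was 1.85 to 306 CPM in Tac1-low (median 73.1) and 77.2 to 403 CPM in Tac1-high cells (median 210). All 18 Tac1-high cells lay above the Tac1-low median. The log2 difference was 1.38 (SE 0.22, unadjusted p = 0.000182, adjusted p = 0.373 by edgeR), and it was positive in all 4 pools. Stard3, for a cholesterol-binding protein of late endosomes, had medians of 20.0 and 46.7 CPM and a log2 difference of 2.08 (SE 0.44, adjusted p = 0.655 by edgeR). With the middle cells included, 27 cells against 27, the difference of Calb1 was 1.60 (adjusted p = 0.891 by edgeR). With Tac1 ranked inside each pool it was 1.56 (adjusted p = 0.492).

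**Figure D2:**
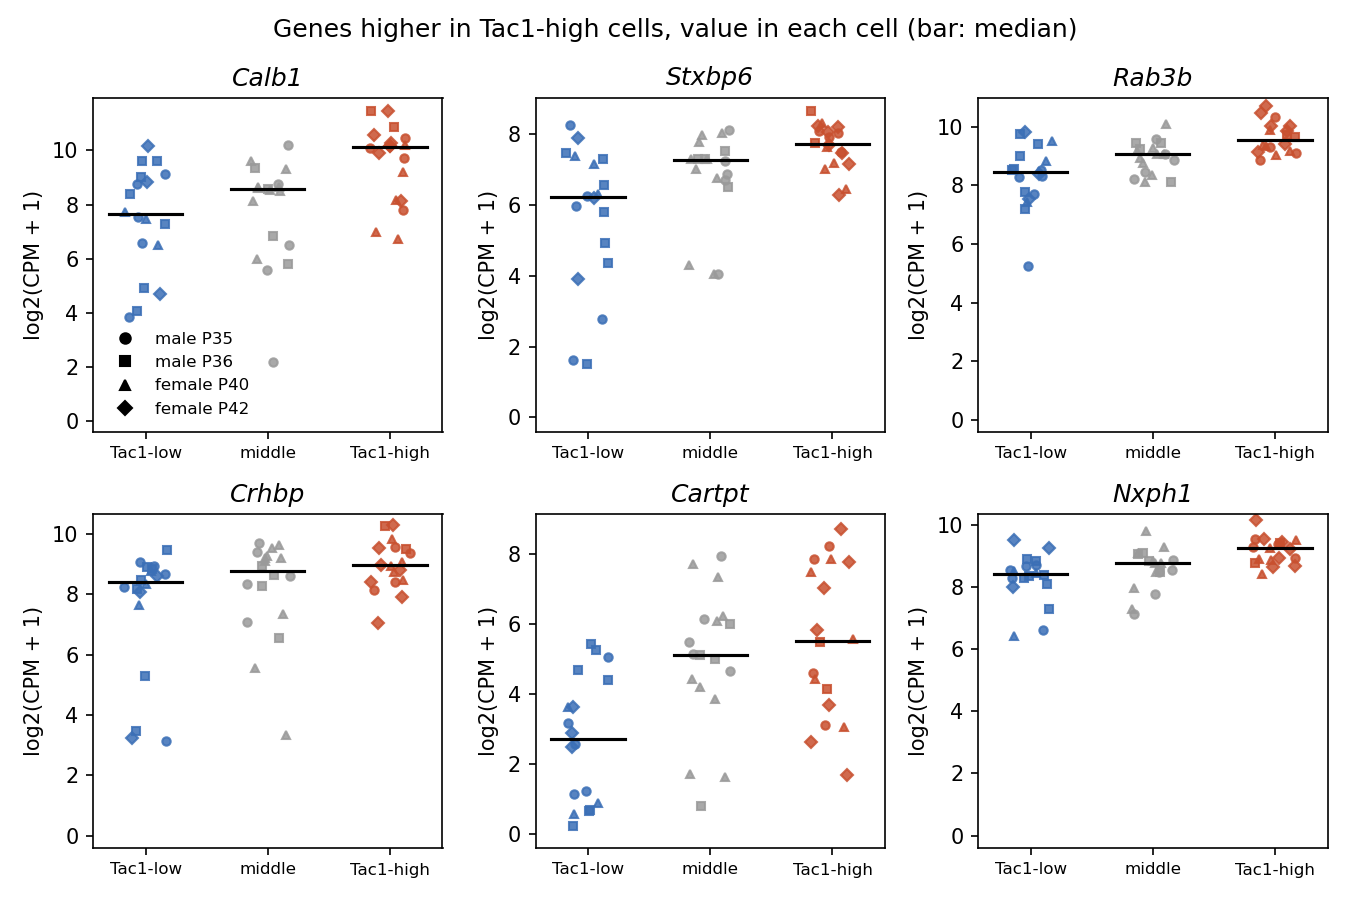
Value of 6 genes in each Pass cell as log2(CPM + 1), by side, with the pool as marker and the median as a bar. For each gene the median is lowest in Tac1-low, higher in middle and highest in Tac1-high cells (199, 377 and 1111 CPM for Calb1). The ranges of the sides overlap, and the middle cells include none of the female P42 pool.

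Over the 54 Pass cells, the genes whose CPM followed Tac1 most closely by Spearman's rho were Rab3b (0.62), Cartpt (0.56), Nppc (0.55), Stxbp6 (0.54) and Zdhhc2 (0.53), and Calb1 reached 0.51. Nppc encodes C-type natriuretic peptide and Zdhhc2 a palmitoyltransferase. These values are a description with no test, since cells share pools and all CPM of a cell share its total. Within pools, rho for Cartpt was 0.56, 0.48, 0.61 and 0.75 (male P35, male P36, female P40, female P42). For Stxbp6 it was 0.58, 0.71, 0.03 and 0.66, near 0 in the female P40 pool. The lowest values were those of Myadm (-0.53), Arrdc4 (-0.51), Psmc3 (-0.50), Tacr1 (-0.50) and Sez6 (-0.49).

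Tacr1, the receptor for substance P (chr6:82402334-82560104), was the 1 gene of the tachykinin list that was tested, and it ran opposite to Tac1. It had 0 to 99.3 CPM in Tac1-low (median 5.69), 0 to 43.3 CPM in the middle (median 0.410) and 0 to 4.35 CPM in Tac1-high cells (median 0.156). The 4 highest Tac1-low cells held 72.4% of that side's summed CPM. A count was present in 17 Tac1-low and 13 Tac1-high cells. No Tac1-high cell was above the Tac1-low median, and 17 of 18 Tac1-low cells were above the Tac1-high median. The pool sums of Tac1-low and Tac1-high were 23.8 and 0.453 CPM in male P35, 19.0 and 3.19 in male P36, 12.8 and 0.193 in female P40, and 6.53 and 0.134 in female P42. The log2 difference was -5.07 (SE 1.22, unadjusted p = 0.00261, adjusted p = 0.694 by edgeR, 5.55e-06 by DESeq2), and Tacr1 was lower in Tac1-high in all 4 pools. It ranged from -5.77 to -2.88 over the edgeR alternatives, and was -1.82 with limma on the cell means. The other members of the list did not pass the filter on low counts: Tac2 had a count in 1 Tac1-low and 2 Tac1-high cells, and Tacr3 in 1 cell of each side.

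Of the other peptide receptors, Sstr2, a somatostatin receptor, had the lowest p, but its difference rested on few cells. Its medians were 0.673 CPM in Tac1-low and 0.412 CPM in Tac1-high cells, while the highest values were 407 and 2.90 CPM. The highest middle cell had 53.4 CPM. The 4 highest Tac1-low cells held 95.0% of that side's summed CPM. The log2 difference of the sums was -5.56 (SE 0.92, adjusted p = 0.373 by edgeR), lower in all 4 pools. Of 7 receptors tested, 1 was higher and 6 lower, and the median was -0.80.

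The 4 Tac1-low cells highest in Sstr2 also carried C1ql1 and Pthlh, genes known from axo-axonic cells of the cortex, which were picked for description with their values in view. C1ql1 was above 200 CPM in 4 Tac1-low, 1 middle and 0 Tac1-high cells. In male P35 cell 2, C1ql1 was 669 CPM, Pthlh 490 CPM, Sstr2 177 CPM and Unc5b, a netrin receptor, 232 CPM. In male P36 cell 7 the values in that order were 339, 374, 407 and 57.1 CPM. In male P36 cell 4 they were 267, 873, 79.5 and 58.9 CPM, and in female P42 cell 6 they were 306, 171, 145 and 21.2 CPM. The first 3 of these cells also had the 3 lowest Tac1 levels of all, at 18.2, 6.84 and 19.0 CPM, and the other had 239 CPM. The middle cell, female P40 cell 6, had 288 CPM of C1ql1 at 763 CPM of Tac1, so high C1ql1 was not limited to cells low in Tac1. The highest C1ql1 value of a Tac1-high cell was 77.7 CPM. Some of the Tac1-low harvests high in C1ql1 also held markers of non-neuronal cells (lists below). Summed oligodendrocyte markers were 12878 CPM in male P36 cell 4, and endothelial and blood markers 5794 CPM in female P42 cell 6. Summed microglia markers were 2460 CPM in male P36 cell 7. In male P35 cell 2 these sums were 545, 22.8 and 45.7 CPM. Their part in the values was not tested.

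Of the 5 axo-axonic genes tested, 0 were higher in the Tac1-high sums, 2 had an unadjusted p under 0.05, and the median log2 difference was -3.26. In this list Vipr2 was near 0 on both sides (medians 0.0173 and 0 CPM), and Cpne5 differed by -0.30 (SE 1.43). C1ql1 differed by -3.26 (SE 1.36, adjusted p = 1 by edgeR) and Pthlh by -1.94 (SE 1.19, adjusted p = 1). Both were higher on the Tac1-high side in the female P40 pool, where the sums for C1ql1 were 0.588 and 3.81 CPM. Without the 4 cells above 200 CPM, which were picked by C1ql1 itself, C1ql1 differed by 0.63, and the list's median was 0.63. Pthlh, picked for description from the same cells, then differed by 0.57, Tacr1 by -4.59 and Calb1 by 1.71 (adjusted p = 1 by edgeR). Of the higher genes, Stxbp6 then differed by 1.05, Rab3b by 0.92, Crhbp by 0.65, Stard3 by 1.80 and Cartpt by 3.82. All of these but Cartpt were smaller than with the 4 cells. In those 4 cells Crhbp was 7.87 to 38.2 CPM and Stxbp6 1.85 to 19.6 CPM. The median of C1ql1 over all cells of a side was 2.53 CPM in Tac1-low and 1.14 CPM in Tac1-high. No cell was given a type name on this ground.

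Cbln2, for a cerebellin that bridges neurexins to postsynaptic receptors, was also present in these 4 cells. It stood at 20.1, 17.5, 41.1 and 46.7 CPM (male P35 cell 2, male P36 cells 7 and 4, female P42 cell 6). Another Tac1-low cell, male P35 cell 11, had 99.3 CPM. The middle cell female P40 cell 6 had 25.3 CPM. The medians of Cbln2 were 0.259 and 0.0513 CPM and the log2 difference was -5.40 (SE 1.31, unadjusted p = 0.00273 by edgeR). Of the neurexins and partners, 8 of 17 tested were higher and 9 lower with a median of -0.09. Lrrtm1, a postsynaptic adhesion protein, had medians of 51.8 and 1.84 CPM and a log2 difference of -2.29 (SE 0.82, unadjusted p = 0.0213), lower in Tac1-high in all 4 pools.

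Of 12 tested genes that mark PV subtypes in atlases of the cortex, 3 were higher and 9 lower (median -1.55), with Calb1 the 1 higher gene at an unadjusted p under 0.05. The 2 lower genes at that level, Ntf3 (-4.56, SE 1.40), for neurotrophin-3, and Gpr149 (-5.46, SE 1.89), a receptor, had medians near 0 on both sides.

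**Figure D3:**
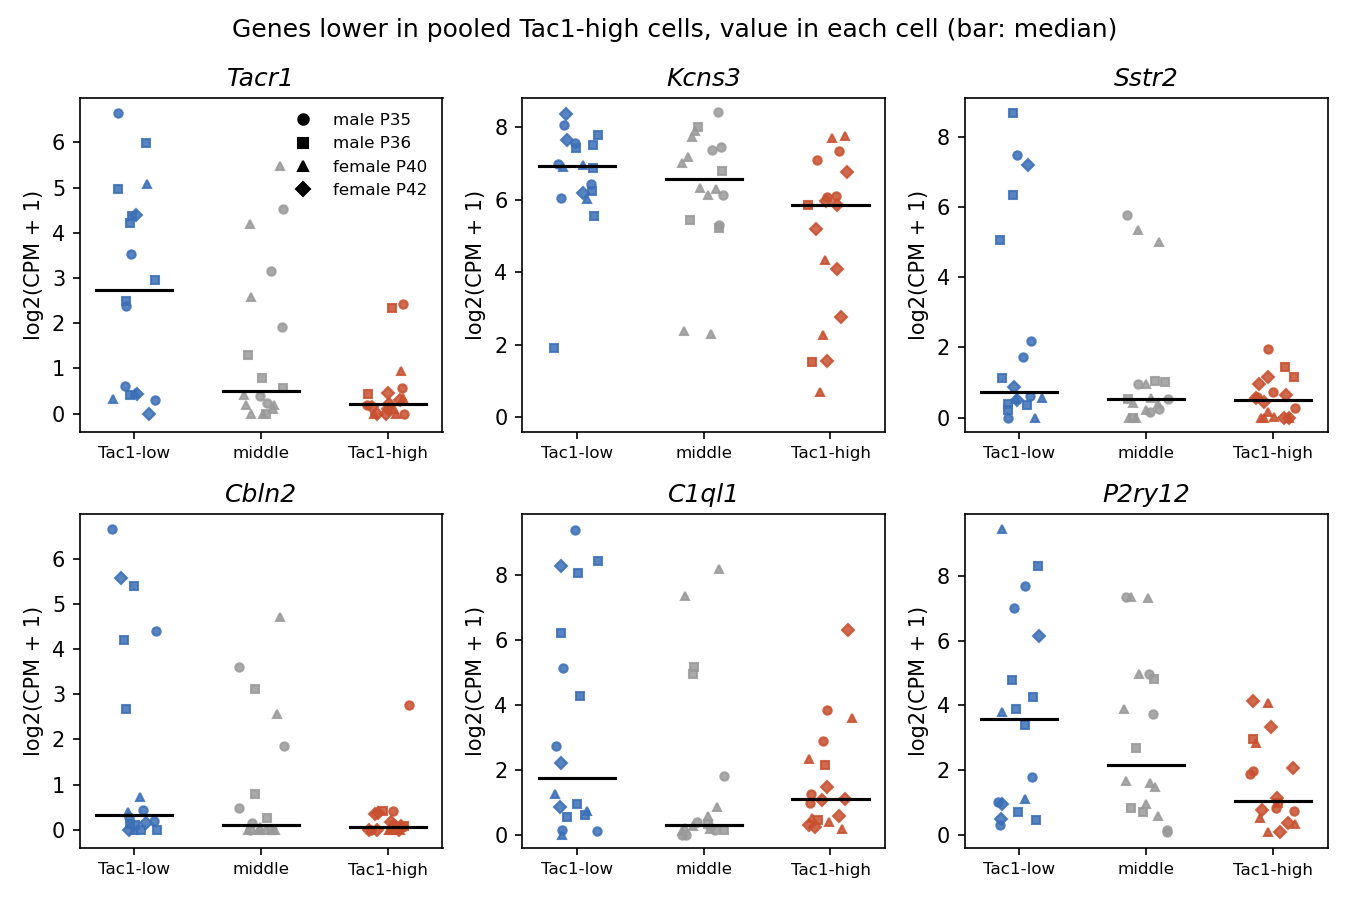
Value of 6 genes in each Pass cell as log2(CPM + 1), by side, with the pool as marker and the median as a bar. For Tacr1 and Kcns3 the Tac1-low median is the highest and the Tac1-high median the lowest. For Sstr2, Cbln2 and C1ql1 the medians are low and a few cells, mostly Tac1-low but also middle cells, stand far above the rest.

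Of the potassium channel genes of fast spiking, Kcns3 was lower and Kcnc2 higher in the Tac1-high sums. Kcns3, a modifier subunit of Kv2 channels known from PV cells, was 2.78 to 329 CPM in Tac1-low (median 121) and 0.611 to 215 CPM in Tac1-high cells (median 56.7). Its log2 difference was -1.72 (SE 0.45, unadjusted p = 0.00436, adjusted p = 0.764 by edgeR), and it was lower on the Tac1-high side in all 4 pools, though by 131 against 126 CPM only in male P35. Kcnc2, which makes the Kv3.2 channel, had medians of 422 and 673 CPM and a log2 difference of 0.63 (SE 0.21, unadjusted p = 0.0165), higher in 4 of 4 pools. Kcnc1, for Kv3.1, differed by -0.23 (SE 0.19) with medians of 358 and 307 CPM. Of 10 such genes, 3 were higher and 7 lower, with a median of -0.14. None of the 13 leak, inward rectifier and HCN channel genes tested and none of the 7 sodium channel genes had an unadjusted p under 0.05 by edgeR, and the medians were 0.12 and -0.08. Kcnk3, a leak channel, had medians of 104 and 95.0 CPM and Scn3b, a sodium channel beta subunit, 10 and 12.2 CPM.

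More GABA and glutamate receptor genes were higher than lower in the Tac1-high sums, where over all tested genes 6495 of 13370 were higher. Of 14 GABA receptor subunits, 10 were higher (median 0.16), and the 3 with an unadjusted p under 0.05 were higher in all 4 pools. Among them Gabra4, the alpha4 subunit of extrasynaptic receptors, had medians of 107 and 173 CPM and a log2 difference of 0.86 (SE 0.25, unadjusted p = 0.00687 by edgeR). Gabrg3 differed by 0.74 (SE 0.27) and Gabbr2, of the GABA-B receptor, by 0.77 (SE 0.33). Of 18 glutamate receptor subunits, 13 were higher (median 0.31). Gria4, an AMPA receptor subunit typical of PV cells, had medians of 149 and 261 CPM and a log2 difference of 0.69 (SE 0.23, unadjusted p = 0.0158), and the kainate receptor subunit Grik1 differed by 1.33 (SE 0.49, unadjusted p = 0.0236).

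Of the genes of GABA synthesis, Gad1 had medians of 3019 and 3726 CPM and a log2 difference of 0.14 (SE 0.16), and Gad2, for GAD65, medians of 263 and 391 CPM and a log2 difference of 0.68 (SE 0.28, unadjusted p = 0.0387 by edgeR). Of the transcription factors of interneurons from the medial ganglionic eminence (MGE), Sox6 was higher in 4 of 4 pools (0.95, SE 0.39), while Lhx6 was higher in 1 of 4 (-0.90, SE 0.37). Lhx6 differed by -2.38 in female P40, and the whole difference was -0.43 without that pool and -0.32 without the cells high in C1ql1. The median was 0.13 over the 6 GABA genes (4 higher) and 0.17 over the 11 transcription factors tested (6 higher). The release machinery list had 9 of 18 tested genes higher, a median of 0.01 and 0 genes with an unadjusted p under 0.05 by edgeR. Of its members, Unc13a, which primes vesicles, had medians of 34.2 and 62.9 CPM and differed by 0.72 (SE 0.34). Of the neurofilament and axon genes, 4 of 10 were higher (median -0.03), and Nefh, the heavy neurofilament subunit, had medians of 260 and 130 CPM and differed by -0.76 (SE 0.35). Of the 9 perineuronal net genes tested, 6 were higher (median 0.16), and brevican (Bcan) had medians of 128 and 160 CPM and differed by 0.59 (SE 0.21, unadjusted p = 0.0214).

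The lowest p on the Tac1-low side belonged to genes known from microglia, the immune cells of the brain, and these rested on few harvests. P2ry12, a microglial purine receptor, differed by -4.39 (SE 0.63, adjusted p = 0.264 by edgeR), Il1a by -3.89 (SE 0.55) and the chemokine Ccl4 by -3.01 (SE 0.44). Itgb5 and Selplg, also expressed by microglia, differed by -2.72 (SE 0.44) and -3.18 (SE 0.55). Of 8 microglia markers, 0 were higher in the Tac1-high sums, 8 had an unadjusted p under 0.05, and the median was -2.44. In single cells the summed CPM of the 8 markers went the other way, with a median of 127 CPM in Tac1-low (29.5 to 10142) and 209 CPM in Tac1-high cells (28.5 to 1414). It was above 1000 CPM in 4 Tac1-low cells, 4 middle cells and 1 Tac1-high cell. The middle cells had the highest median of this sum, 347 CPM. P2ry12 itself had medians of 11.2 CPM in Tac1-low and 1.08 CPM in Tac1-high cells. Female P40 cell 9 alone, a Tac1-low cell, held 10142 CPM, and the 4 highest Tac1-low cells held 89.5% of that side's P2ry12. Without the 5 cells of the 2 sides above 1000 CPM, which were picked by the sum of the same 8 markers, P2ry12 among them, the list's median was 0.03. P2ry12 then differed by -1.41, Il1a by -2.13, Ccl4 by -0.71, Itgb5 by -1.20 and Selplg by -1.08, each smaller but still lower, and Calb1 differed by 2.20 (adjusted p = 0.0382 by edgeR), the 1 gene then past the threshold.

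Of 8 excitatory neuron markers tested, 1 was higher and 7 lower (median -2.43). Among the lower ones, 4 had an unadjusted p under 0.05 by edgeR, and Slc17a7 had medians of 12.5 and 5.42 CPM. Yet the summed CPM per cell of all 10 listed markers had medians of 131 in Tac1-low and 147 in Tac1-high cells. The ranges of these sums were 25.1 to 1238 and 33.1 to 450 CPM. The 11 tested markers of other interneurons (2 of 11 higher) had a median of -0.72. The summed CPM of all 13 listed was 202 to 3966 in Tac1-low and 250 to 3667 in Tac1-high cells. The 10 oligodendrocyte markers (7 higher) had a median of 0.18, with sums of 141 to 12878 and 97.5 to 3622 CPM, and the 7 astrocyte markers (5 higher) a median of 1.24, with sums of 78.6 to 3250 and 84.8 to 2245 CPM. The 5 tested genes of the endothelial and blood list (3 higher), all of red blood cells, had a median of 0.31. Sums over all 9 listed genes were 6.94 to 5794 and 6.0 to 29775 CPM. No member of these last 3 lists had an unadjusted p under 0.05 by edgeR. The endothelial genes Cldn5, Flt1, Pecam1 and Ly6c1 did not pass the filter on low counts. Mitochondrially encoded genes were higher in 13 of 13 cases with a median of 0.51, but 0 of 13 were higher in all 4 pools. Their summed CPM was 6337 to 26030 in Tac1-low (median 10610) and 8581 to 108700 in Tac1-high cells (median 14962). The middle cells had the highest median of this sum, 16716 CPM. The difference of mt-Co1, a subunit of cytochrome oxidase, was 0.51 (SE 0.22), -0.33 in the female P42 pool, and 0.27 without female P40. Of 13 immediate early genes, which answer recent activity or handling, 2 were higher and 11 lower (median -0.92). Junb was the lowest in p, with medians of 222 and 160 CPM and a log2 difference of -0.95 (SE 0.19, adjusted p = 0.582 by edgeR). Without the 5 microglial-high cells Junb differed by -0.19 and the median of the immediate early genes was -0.37. In the same setting the median was -2.39 for the excitatory markers, -0.46 for other interneurons, 0.46 for oligodendrocytes, 1.79 for astrocytes, -1.52 for the blood genes and 0.45 for the mitochondrial genes. The part of the excitatory, glial and blood markers in the other differences was not tested.

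**Figure D4:**
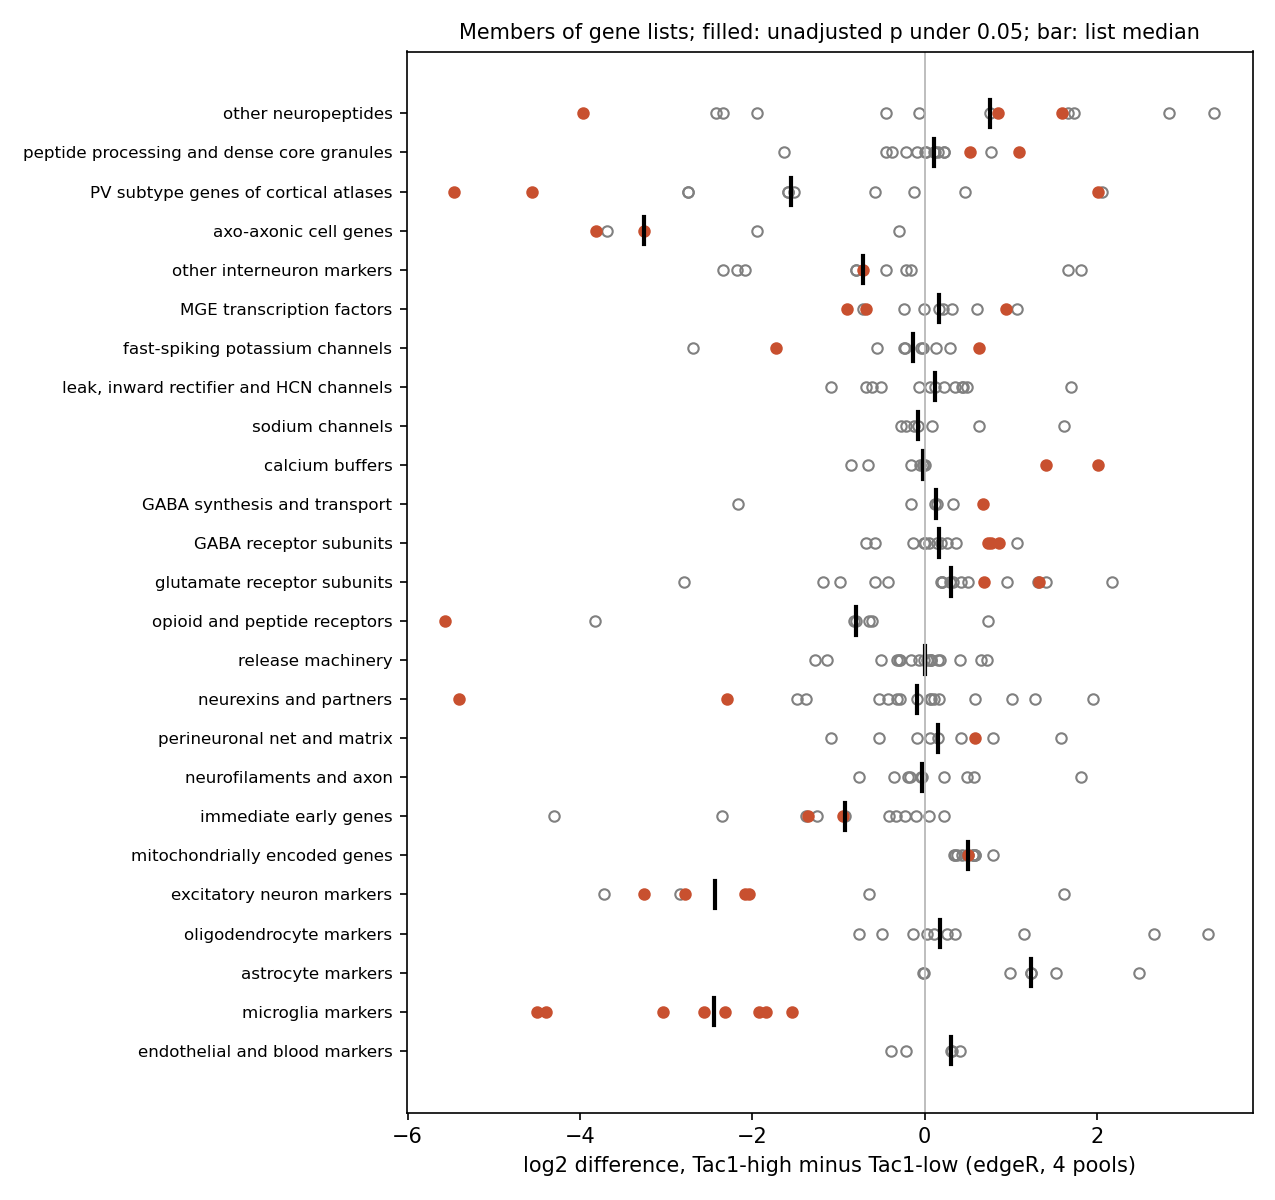
Log2 difference of each tested member of 25 gene lists, Tac1-high minus Tac1-low, with filled points at an unadjusted p under 0.05 and a bar at the list's median. The microglia list lies wholly to the left (8 of 8 members, median -2.44) and the mitochondrial list wholly to the right (13 of 13, median 0.51).

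The labels give 3 membrane values per cell, vrest, rm and cm, without units and with some values missing. The rule did not use them. Cm, by its name the membrane capacitance, was 24.0 to 102 in 17 Tac1-low cells (median 51.0) and 21.0 to 65.0 in 16 Tac1-high cells (median 32.0). The sides overlapped over most of their range. The mean difference over the 4 pools was -13.1 (SD 12.3), with Tac1-high lower in male P36 (37.0 against 59.9), female P40 (29.0 against 39.0) and female P42 (37.6 against 60.0), and higher in male P35 (50 against 47.0). The Tac1-high mean of male P36 and the Tac1-low mean of female P42 each rest on 2 cells. An exact two-sided sign-flip permutation test over the pools gave p = 0.250, where 4 pools cannot give less than 0.125. Cells with high C1ql1 had cm values of 60.0, 74.0 and 70.0 (male P35 cell 2, male P36 cells 7 and 4), and without them the difference was -11.0.

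Rm, by its name the membrane resistance, had medians of 220 in Tac1-low (88.0 to 573) and 290 in Tac1-high cells (123 to 805). The mean difference over pools was 10 (SD 134, p = 1 by the same exact test). It was negative in male P35, male P36 and female P40 and positive in female P42 alone, by 208, where the Tac1-low mean rests on 2 cells. Vrest, by its name the resting potential, had medians of -60.0 (17 cells) and -56.0 (15 cells) and a mean difference of 0.839 (SD 3.93, exact p = 1). Tac1-high was lower in male P35, female P40 and female P42 (-1.25, -0.250 and -1.80) and higher in male P36 alone, by 6.66 and with 2 Tac1-high cells. Without that pool the difference was -1.10. For rm and vrest the difference was smaller than the spread of the pools.

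**Figure D5:**
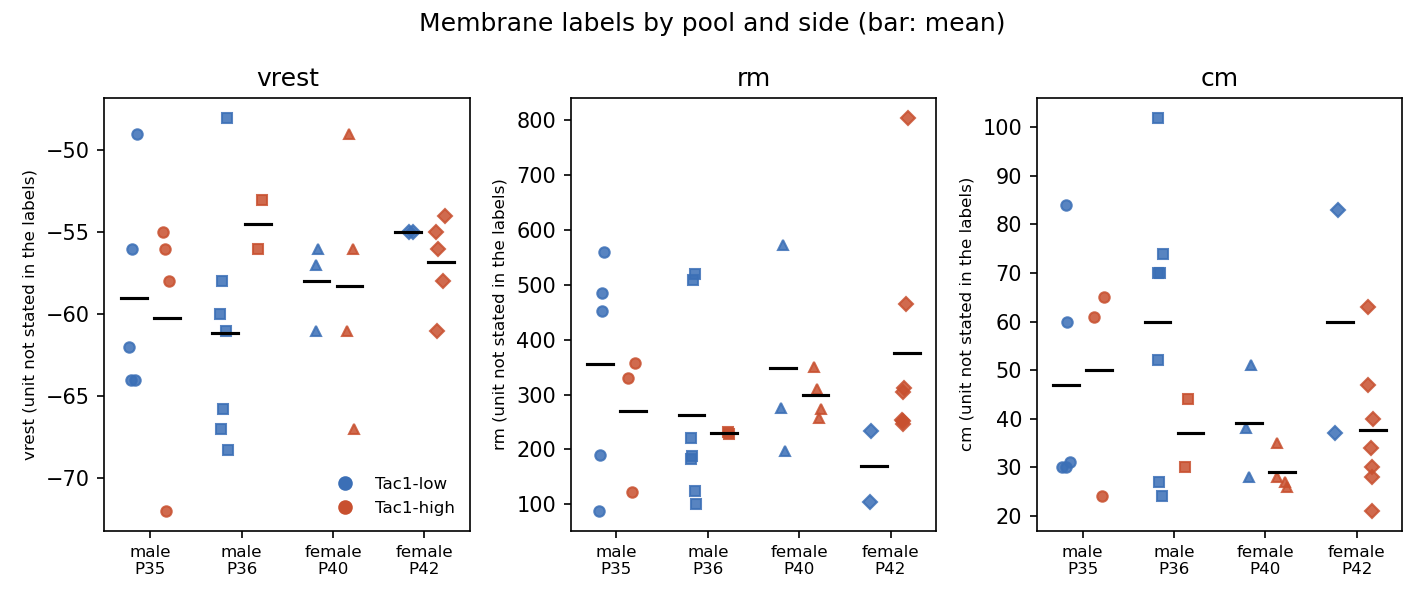
The vrest, rm and cm labels of each Tac1-low and Tac1-high cell by pool, with the mean as a bar. The cm mean is lower on the Tac1-high side in 3 of 4 pools, and the cells of both sides overlap in each measure.

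The neurexin isoform table gave the splicing of Nrxn3, the presynaptic adhesion gene of the study's title. The share of the form that includes splice site 4, from values summed in each pool, was 98.1% to 100% in each pool and side, and the mean difference was -0.320 percentage points (SD 0.252, exact p = 0.250). Splice site 5 was included in 55.3% to 65.6% of the Tac1-low and 49.4% to 84.8% of the Tac1-high sums. The mean difference was 5.95 percentage points (SD 17.4, exact p = 0.625), positive in 2 pools and negative in 2. The Nrxn3 gene itself had medians of 213 and 163 CPM and a log2 difference of -0.42 (SE 0.29, adjusted p = 1 by edgeR), higher in the 2 male pools and lower in the 2 female pools.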

How the data were processed

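The contents of single PV-labelled cells were taken up with a patch pipette, and their libraries were prepared with Nextera XT, per the labels' protocols. The authors aligned reads with STAR to GRCm38 and used edgeR, per the submitters' processing notes; the sources used here do not give the versions, the counting tool, the strand setting or what edgeR was used for. As deposited by the authors, the counts cover 25648 genes without normalization. For neurexin isoforms they deposited a signal whose unit is not stated, from which included over included plus skipped was computed. The authors' normalized values were not used. All columns matched a labelled cell (0 unmatched). No pair of Pass cells had identical counts (0 pairs).

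Members and gene lists were chosen with earlier results of these data known. Counts were summed per pool and side (8 sums), and genes with a count in at least 10 Pass cells that passed filterByExpr were fitted, without Tac1, by edgeR 4.0.16 (R 4.3.3; TMM, quasi-likelihood F test, pool as block, Benjamini-Hochberg threshold 0.05). The SE is the size of the log2 difference over the root of F. Pool CPM use TMM-scaled totals. Both sides of a pool share sex and age, which is the ground for the block. Membrane and splice values were tested by exact sign flips over the 4 pools (16 flips). Alternatives were DESeq2 1.42.0, limma 3.58.1 on mean log2(CPM + 1), RLE factors, no filter, no block, cells thinned to 2.05 M counts, other choices of cells and leaving out each pool. In simulated counts for this comparison (13370 genes), the edgeR fit found 8% of genes changed 2-fold, 42% at 4-fold, 68% at 8-fold and 72% at 16-fold, with 2 false calls. These counts had the same mean for a gene in every pool and a spread set by its mean level only. Single cells that dominate a sum were not simulated, so recovery in the real sums may differ.

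The genes named are the 6 of smallest p per direction with the same sign in all 4 pools (as values), the smallest-p member of each of 26 lists, a fixed set, and the 5 most alike to Tac1; other members of the lists, and C1ql1 and Pthlh, were chosen after their values were seen.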

Additional observations from a re-analysis of the deposited data

Results flagged for a closer look

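Kcnk3, a leak channel, differed by -2.24 (log2, Tac1-high minus Tac1-low) in the female P40 pool, far below the other 3 pools (-0.30, -0.10 and 0.06). A gap of this size is found by chance in about 1 in 20 groups. As 46 named genes had a fitted difference, some such gaps would occur among them by chance. Gad1 was higher on the Tac1-high side in both male pools (0.03 and 0.77) and lower in both female pools (-0.22 and -0.01), a gap of 0.51 between the sexes' means that was not tested. Of these Gad1 values, 0.03 (male P35) and -0.01 (female P42) were near 0. Nrxn3 likewise was higher in both male pools (0.04 and 0.37) and lower in both female pools (-0.88 and -1.21), a gap of 1.25 that was not tested, and sex cannot be told apart from age here.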

How the results depend on the processing

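Of the 46 named genes with a fitted difference, 36 kept their sign in all 15 alternatives, and 18 of 690 values changed sign. The count of higher genes (0) was 102 with DESeq2, 3 with limma, 3 without the low count filter and 1 without the microglial-high cells, and 0 with the other alternatives; with no replicate block it was 0. The count of lower genes (0) was 216 with DESeq2 and 9 without the filter. Leaving out each pool gave 0 in both directions. With no replicate block Calb1 differed by 2.14 (adjusted p = 0.676 by edgeR), and Pvalb by 0.47 and Slc1a2 by -0.01, both with the opposite sign. Id2 turned to 0.26 with limma and 0.29 without microglial-high cells, and Cldn11 to -0.01 with the median split. Hba-a2 turned to -0.79 without microglial-high cells and ranged from -1.75 to 2.46 with each pool left out, negative without male P35 (-1.66) or female P40. Pvalb turned to 0.20 without cells with Sst above Pvalb and ranged from -0.60 to 0.57 with each pool left out, positive without male P36 (0.01) or female P42. Npy turned to -1.75 without the Sst cells and ranged from -1.11 to 4.34 with each pool left out, negative without male P35 or female P40 (-0.71). Sst turned to -0.69 without the Sst cells, and Gad1 to -0.07 without male P36. Without the cells high in C1ql1, C1ql1 turned to 0.63, Pthlh to 0.57, the rm difference to -11.3, the splice site 4 difference to 0.0107 and the splice site 5 difference to -1.74. The vrest difference was -0.837 with Tac1 ranked within pools and -1.10 to 1.72 with each pool left out. The rm difference was -55.9 to 41.7, the cm difference -18.4 to -9.81, the splice site 4 difference -0.428 to -0.239 and the splice site 5 difference -1.90 to 10.3 with each pool left out. The mean of cell shares gave 0.934 for site 4 and -4.67 for site 5, and the median split 1.98 and -0.873. Where a value turned, the cause was not tested. The alternatives without microglial-high and C1ql1-high cells were added after seeing the data. Male P36 cell 7 was left out in both, so they are not separate checks. Without the C1ql1-high cells P2ry12 differed by -3.33, and the median of the microglia markers was -1.25. Cells high in C1ql1, or with Sst above Pvalb, were dropped by the gene's own level. The values of C1ql1 and Sst without them therefore follow in part from that choice. With cells thinned to an equal total, Calb1 differed by 1.86. Differences of low genes such as Sstr2 and Tacr1 rest on few counts in Tac1-high cells.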

Other observations

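The 4 cells with the quality control label Fail were left out above. Their Tac1 levels were 362 and 364 CPM in the male cells and 1534 and 636 CPM in the female cells, within the range of the Pass cells, at totals of 0.836, 0.596, 0.545 and 5.08 M counts. Their Calb1 levels were 139, 307, 213 and 1622 CPM in the same order.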
